A study of Drosophila melanogaster with 2 samples.

Results

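The homeotic (Hox) genes of Drosophila melanogaster are 8 genes, in order along the body axis lab, pb, Dfd, Scr, Antp, Ubx, abd-A and Abd-B. They were taken by symbol, and by gene ID for older symbols, from the platform annotation of an Affymetrix expression array. Of the 8, 4 were named by a probe set, with 5 probe sets among 13966 for fly genes. These 4 genes, pb, Dfd, Scr and Antp, belong to the Antennapedia complex. The genes lab, Ubx, abd-A and Abd-B were named by no probe set of the annotation used and were not analysed here, so no Hox gene of the bithorax complex has a value below.

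Hox genes encode homeodomain transcription factors that give the segments of the fly their identity. They lie in a pair of clusters on chromosome 3, the Antennapedia and bithorax complexes, and the Hox genes of each cluster are ordered largely as their domains follow each other from head to tail. Segmentation genes set up their domains in the early embryo, and the Polycomb group (repressors) and trithorax group (activators) keep them off or on afterwards. In late embryos the thoracic and trunk Hox genes are known for expression in the nerve cord, and Hox proteins also pattern the epidermis, the gut and its muscle.

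There were 2 arrays, 1 of homozygous tdf mutant embryos and 1 of yw embryos. Embryos of both groups were taken 16 h after egg laying at 25 °C, and tdf homozygotes were picked with the help of the balancer CyOact-GFP. The gene tdf, now apontic (apt), encodes a DNA-binding transcription factor, and yw is a stock marked by the genes yellow and white. The labels name neither the tdf allele nor how many embryos went into an extract. Because yw is a separate stock, other stock differences cannot be told apart from those of tdf, and because RNA came from whole embryos, fewer cells of a type and less RNA per cell cannot be told apart either.

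Each value is a MAS5 signal, a linear intensity scaled by the authors per array. The median signal over fly probe sets was 154 on the tdf array and 152 on the yw array. With 1 array per genotype there is no replicate check and no test, and the number of arrays limits the precision. A floor was set at the 40th percentile of fly probe sets, a signal of 97.3, and a gene was measured when its higher signal reached the floor. For the log2 ratio, tdf over yw, any signal below the floor was set to the floor. Where that was done for 1 array the ratio is a bound, written as "at least". The signal of apt was 1051 on the tdf array and 979 on the yw array, which does not check the label, since the lesion is not given. The signal of y was 628 on the tdf array and 563 on the yw array.

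Of the 4 named Hox genes, 2 were measured. Antp was nearly 2-fold higher on the tdf array in its brighter probe set, while Dfd was level. The genes pb and Scr were below the floor on both arrays, and no ratio is given for them. Neither measured Hox gene was past the limit of 2-fold in either direction. Of all 7639 measured genes, 3.60% were at least 2-fold higher, and 6.19% were lower by that much.

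The gene pb (proboscipedia) directs the formation of the adult mouthparts. It had a signal of 21.3 on the tdf array and 47.5 on the yw array, both below the floor. At such signals MAS5 values are noisy, so the difference was not detectable here.

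The gene Dfd (Deformed) gives identity to the mandibular and maxillary segments of the head and in the embryo is needed for the mouth hooks. Its signal was 228 on the tdf array and 224 on the yw array. The 2 signals differed by 3.94, a log2 ratio of 0.03, or 1.02-fold. Its ratio stood near the middle of all measured genes, with 3866 genes above it and 3772 below. The sign of so small a ratio was not stable, since centring on the median gave -0.01 and loess also gave -0.01.

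The gene Scr (Sex combs reduced) acts in the labial segment and the anterior thorax and is required to form the larval salivary glands. Its signal was 2.03 on the tdf array and 20.5 on the yw array, both far below the floor. No level of Scr can be read from this probe set on either array.

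The gene Antp (Antennapedia) gives identity to the thorax, where it is known above all for the segment that bears the middle legs, and it is also expressed in the embryonic nerve cord and the visceral mesoderm. The brighter of its 2 probe sets had a signal of 477 on the tdf array and 244 on the yw array, both above the floor. The log2 ratio was 0.97, or 1.95-fold higher on the tdf array. This was just under the limit of 2-fold, and under quantile normalisation the log2 ratio was 1.02, past the limit. Of the 7639 measured genes, 308 (4.03%) had a higher ratio than Antp, and 10.7% had a ratio larger in size in either direction. Of the 6508 genes that both arrays put above the floor, 3.64% exceeded Antp in ratio.

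The other probe set of Antp did not show this. It had a signal of 61.2 on the tdf array and 80.6 on the yw array, both below the floor, with the yw signal the higher one. No label says where along the transcript each probe set lies. Of 999 measured genes with 2 or more probe sets, 647 (64.8%) had another probe set below the floor on both arrays. The brightest probe set stood for each gene, which raises this share. The share does not tell which Antp probe set is right. With the signals of both probe sets averaged, the log2 ratio of Antp was 0.73.

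**Figure D1:**
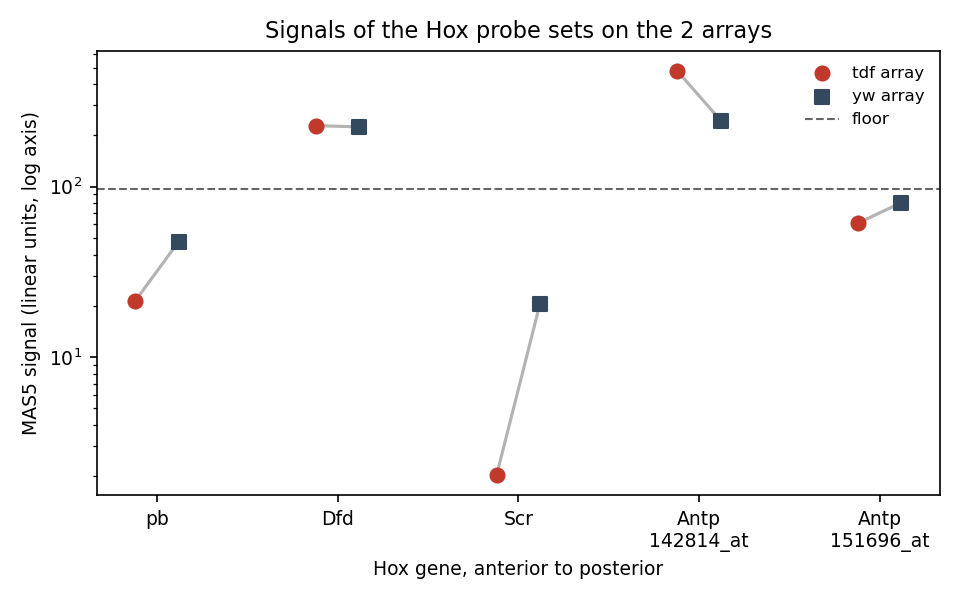
Signals of the 5 Hox probe sets on the tdf array (circles) and the yw array (squares), on a log axis, with the genes ordered from head to tail and the floor of 97.3 dashed. Dfd and 1 probe set of Antp lie above the floor on both arrays, and pb, Scr and the other Antp probe set lie below it on both.

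The spread between probe sets gives a scale for the Antp ratio. Over 278 genes with 2 or more probe sets above the floor on both arrays, probe sets within a gene differed in log2 ratio with an SD of 0.53. The Antp ratio was 1.81 times this SD and the Dfd ratio 0.05 times. This SD measures the arrays and probe sets and not biological variation, so whether Antp differs between tdf and yw embryos beyond the variation between batches of embryos was not tested. The median of both measured Hox genes was 0.50, against 0.03 over all measured genes, and rests on Antp.

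**Figure D2:**
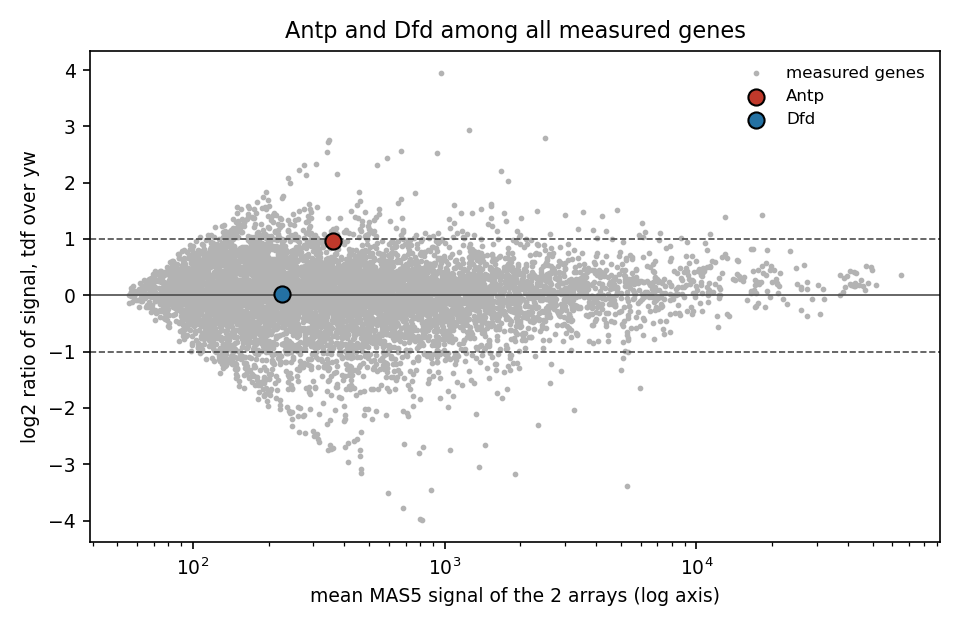
Log2 ratio of signal (tdf over yw) against the mean signal of both arrays (log axis) for the 7639 measured genes, with Antp and Dfd marked and dashed lines at 2-fold. Antp lies at 0.97, with 308 genes above it, and Dfd at 0.03, with 3866 genes above it and 3772 below.

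The Antennapedia complex also holds genes that are no Hox genes, and these did not share one direction. In the gene order of the assembly Release 6 plus ISO1 MT, 19 protein-coding genes run from lab to Antp. Of the 14 that are no Hox genes, 10 were named by a probe set and 9 were measured. Their median log2 ratio was -0.05, with 4 above 0 and 5 below, and a range from -1.76 to 0.98. The count was 0 of 9 at least 2-fold higher and 2 of 9 at least 2-fold lower, against 3.60% and 6.19% of all measured genes. Of these 2, bcd was measured through the yw array alone, so it had to come out lower on the tdf array. Of the 7 above the floor on both arrays, 1 was at least 2-fold lower and 0 were higher by as much. Of all 6508 such genes, 365 were at least 2-fold lower.

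Both lower genes lie between zen and Dfd. The gene bcd, whose maternal mRNA patterns the head, had a signal of 54.1 on the tdf array and 330 on the yw array, at least 3.39-fold lower. Its neighbour Ama (Amalgam), which encodes a secreted immunoglobulin protein of the nervous system, had 653 on the tdf array and 1395 on the yw array, 2.14-fold lower. Dfd, the next protein-coding gene after Ama, was level.

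Next to Antp, the pair-rule gene ftz had a signal of 142 on the tdf array and 66.7 on the yw array, at least 1.46-fold higher. The gene zen, a dorsal patterning gene derived from a Hox gene, had 249 on the tdf array and 147 on the yw array, 1.69-fold higher. Its copy zen2 had 52.6 on the tdf array and 73.9 on the yw array, below the floor on both. The value of zen was under 2-fold, and the bound for ftz leaves room for more, its log2 ratio being 1.09 with a floor at the 25th percentile.

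Between lab and pb lies a run of cuticle protein genes, which were split. Ccp84Ad had a signal of 9401 on the tdf array and 4751 on the yw array, 1.98-fold higher, but the name of its probe set marks it as one that reads a family of genes, so the signal may include related genes. Ccp84Ae had 2111 on the tdf array and 1476 on the yw array, 1.43-fold higher. Ccp84Ac had 2710 on the tdf array and 3676 on the yw array, 1.36-fold lower. Ccp84Ag, at 6894 on the tdf array and 7121 on the yw array, and Edg84A, at 157 on the tdf array and 180 on the yw array, had log2 ratios of -0.05 and -0.20. Between Ubx and Abd-B, CG31275 was the 1 gene named by a probe set, with 84.1 on the tdf array and 27.1 on the yw array, below the floor on both.

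**Figure D3:**
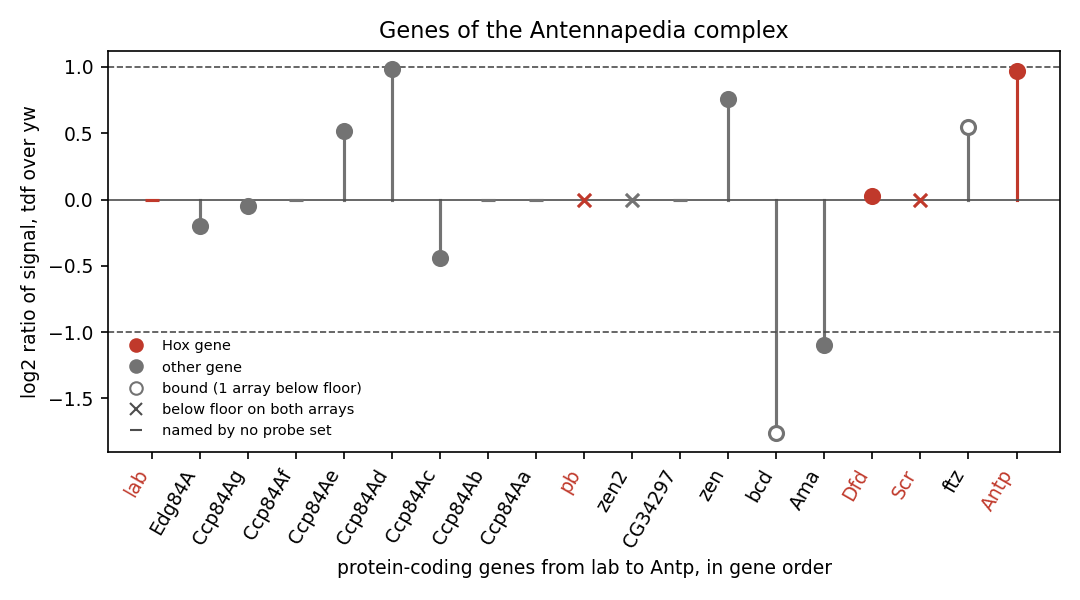
Log2 ratio of signal (tdf over yw) for the 19 protein-coding genes from lab to Antp, in gene order and not to scale in distance, with Hox genes in red, bounds as open circles, crosses for genes below the floor on both arrays, short bars for genes named by no probe set, and dashed lines at 2-fold. Antp is at 0.97 and Dfd at 0.03, and of the others bcd, at -1.76 or lower, and Ama, at -1.10, are past 2-fold.

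The partners of Hox proteins were hardly covered. Of 6 such genes, exd and hth, which encode the main Hox cofactors, were named by no probe set, and disco-r and tio were below the floor on both arrays. The zinc finger gene disco, a partner of the head Hox genes Dfd and Scr, had a signal of 173 on the tdf array and 119 on the yw array, 1.45-fold higher. The trunk gene tsh, which acts with the trunk Hox genes, had 285 on the tdf array and 250 on the yw array, 1.14-fold higher. Neither of the 2 was 2-fold apart.

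Among genes known as Hox targets, 3 of the 16 measured were higher by 2-fold or more and none of the 16 was lower by as much, with a median log2 ratio of 0.18. All 3 counted as measured through the tdf array alone, so they had to be higher there, and the count is read against nothing, although 3.60% of all measured genes were as much higher. Of the 11 targets that both arrays put above the floor, 0 were 2-fold apart in either direction, and their median was 0.09. The limb gene Dll, which abdominal Hox proteins repress, had a signal of 243 on the tdf array and 60.9 on the yw array, at least 2.50-fold higher. The gene ct, a target of Abd-B in the posterior spiracles, had 218 on the tdf array and 84.3 on the yw array, at least 2.24-fold higher. The cell adhesion gene Con, a target of Ubx, had 195 on the tdf array and 94.2 on the yw array, a bound barely past 2-fold higher, but each of the 3 other scalings put it under 2-fold. The wing gene vg had 224 on the tdf array and 112 on the yw array, just under 2-fold higher. The brightest of the list, scyl, had 1327 on the tdf array and 1255 on the yw array, a log2 ratio of 0.08.

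These 3 higher targets, and ftz, were all below the floor on the yw array. The array's yeast controls, for which fly RNA holds no target, were also higher on the tdf array, at 71.2 to 223 in the 4 of them, against 5.37 to 64.2 on the yw array. They differed by 65.8 to 159 signal units, ftz by 75.4, Con by 101, vg by 112, ct by 133, Dll by 182 and Antp by 233. Of the genes named below as higher by a bound, opa differed by 71.1, Rab3 by 93.3 and btd by 95.6. Differences of this order were also seen in dim genes above the floor on both arrays. Among them were disco (53.6), srp (89.1), zen (102), eve (117) and Su(z)12 (119). The 7 mouse and tryptophan controls were below the floor on both arrays, with 5 of 7 higher on the tdf array. The array's poly(A) spike-in controls went the other way, with 1 of 12 higher on the tdf array and a median log2 ratio of -0.91 over the 6 above the floor on both. What part the controls' differences have in the dim signals, those of Hox and target genes included, was not tested.

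Of the segmentation genes that act upstream of the Hox genes, no value or bound among the 13 measured reached 2-fold, and the median log2 ratio was 0.45. Several are bounds, and with a floor at the 25th percentile 3 genes were at least 2-fold higher. Over the 8 genes that both arrays put above the floor the median was 0.16. The head gap gene btd had a signal of 175 on the tdf array and 78.9 on the yw array, at least 1.79-fold higher. The pair-rule gene opa had 167 on the tdf array and 96.2 on the yw array, at least 1.72-fold higher. The pair-rule gene eve, which late embryos express in neurons and heart cells, had 345 on the tdf array and 228 on the yw array, 1.52-fold higher. The POU gene nub had 145 on the tdf array and 218 on the yw array, a log2 ratio of -0.59, and the brightest, the posterior homeobox gene cad, had 1369 on the tdf array and 1859 on the yw array, 1.36-fold lower.

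Among the maintenance regulators of the Hox genes, some repressors and some activators were lower on the tdf array. Of 16 measured Polycomb group genes, 4 (25%, against 6.19% of all measured genes) were lower by 2-fold or more and none of the 16 was higher by as much, with a median log2 ratio of -0.35. They were Sfmbt (261 on the tdf array and 831 on the yw array), Caf1-55 (852 on the tdf array and 2685 on the yw array), the H2A ubiquitin ligase gene Sce (208 on the tdf array and 536 on the yw array) and the H3K27 methyltransferase gene E(z) (274 on the tdf array and 580 on the yw array). The other genes went both ways, with 6 of the 16 above 0. The highest of these, named after their values were seen, were Su(z)12 (244 on the tdf array and 125 on the yw array, 1.96-fold higher), escl (1.78-fold higher) and Pcl (1.63-fold higher). Lower but short of 2-fold were Psc (101 on the tdf array and 201 on the yw array, 1.99-fold) and jing (1.70-fold), also named afterwards. The count of 4 became 5 under each of the 3 other scalings and 2 with a limit of 3-fold. The gene Pc itself did not reach the floor on either array.

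Of 21 measured trithorax group genes, 7 (33.3%) were lower by 2-fold or more, against 6.19% of all measured genes. None of the 21 was higher by as much, and the median log2 ratio was -0.56, with 5 of the 21 above 0. Of the 7, ash2 and psq were measured through the yw array alone, so they had to come out lower on the tdf array. Of the 16 above the floor on both arrays, 5 were at least 2-fold lower, against 365 of all 6508 such genes. The count of 7 became 4 under quantile normalisation, 4 with a floor at the 60th percentile and 1 with a limit of 3-fold. The histone methyltransferase gene trx had a signal of 295 on the tdf array and 592 on the yw array, 2.01-fold lower. Subunits of the Brahma remodelling complex were lower to a like degree, with mor at 2.08-fold, Bap60 at 2.07-fold and Snr1 at 2.05-fold. These values lie close to the limit, and under quantile normalisation trx (log2 ratio -0.93), mor (-0.98) and Bap60 (-0.98) were under 2-fold, as was trx with loess (-0.97). The remaining lower genes were ash2 (at least 3.54-fold), psq (at least 2.89-fold) and the acetyltransferase gene nej (2.05-fold, but a log2 ratio of -0.94 with its probe sets averaged). The brightest of the list, the GAGA factor gene Trl, had 1732 on the tdf array and 1589 on the yw array, a log2 ratio of 0.12.

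**Figure D4:**
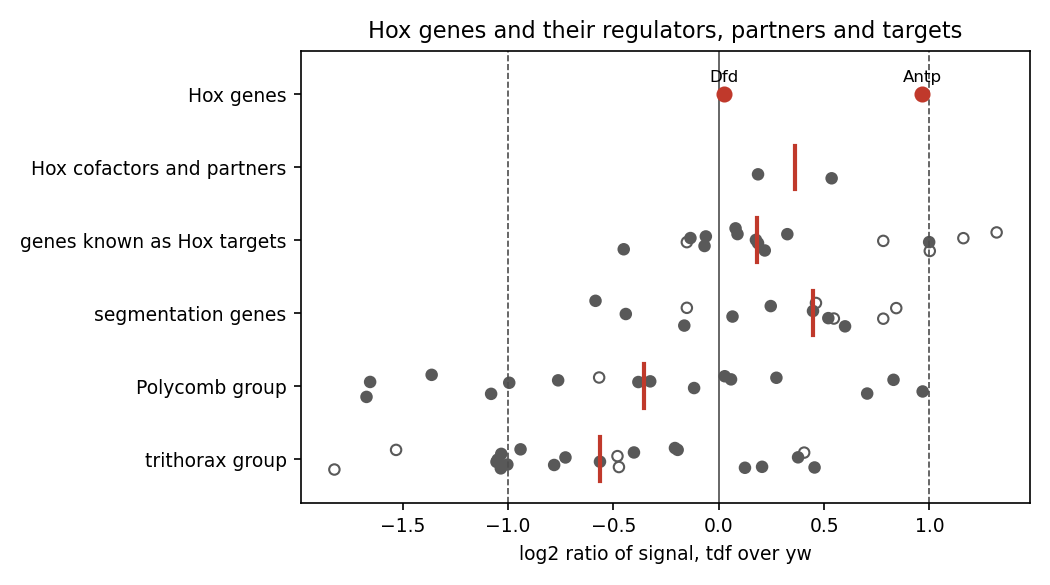
Log2 ratio of signal (tdf over yw) for the measured Hox genes and for lists of their cofactors and partners, known targets, upstream segmentation genes, Polycomb group and trithorax group genes, with bounds as open circles, list medians as red bars and dashed lines at 2-fold. The medians of the Polycomb and trithorax groups lie at -0.35 and -0.56, and those of the other lists above 0.

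Maternal and early embryonic transcripts were lower on the tdf array too. Of the 11 measured, 9 were lower by 2-fold or more, against 6.19% of all measured genes. None of the 11 was higher by as much, and the median log2 ratio was -3.04. The summed signal over the 13 named was 2344 on the tdf array and 19148 on the yw array. Much of both sums was CycB alone, with 928 on the tdf array and 9664 on the yw array. The gene with the largest fold was smg, at 73.5 on the tdf array and 1528 on the yw array, at least 15.7-fold lower. The others were swa, dah, CycB, twe, kuk, bcd, tor and Tl, from 11.4-fold as a bound for swa to 2.32-fold for Tl. Of the 9, smg, swa, twe, bcd and tor were measured through the yw array alone, so they had to come out lower on the tdf array. Of the 5 in the list above the floor on both arrays, 4 were at least 2-fold lower, against 365 of all 6508 such genes. Signs of RNA quality differed as well: the 3' signal over the 5' signal was 52.3 on the tdf array and 32.7 on the yw array for actin, and 32.2 on the tdf array and 14.9 on the yw array for 18S rRNA. It was 56.6 on the tdf array and 45.5 on the yw array for eIF-4a, but 17.3 on the tdf array and 22.8 on the yw array for GAPDH. All these ratios were high on both arrays, from 14.9 to 56.6, so both extracts gave far more 3' than 5' signal. The part of this 3' bias in any signal, those of the Antp probe sets included, was not tested. The part of these transcripts and of RNA quality in the Polycomb and trithorax group values, and in that of bcd, was not tested.

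In 3 lists of markers of tissues in which Hox genes act, no value or bound reached 2-fold at the floor of 97.3. Of 5 measured neuronal genes, 3 had a ratio above 0 and the median log2 ratio was 0.46. One of the 3, Rab3, was measured through the tdf array alone, so it had to come out above 0. Over the 4 genes that both arrays put above the floor the median was 0.16. With another choice of probe set, which changed that of ChAT, the median of the 5 was 0.15. The RNA-binding protein gene fne had 1305 on the tdf array and 655 on the yw array, 1.99-fold higher, and was past 2-fold with loess (log2 ratio 1.03) and quantile normalisation (1.07). Rab3 was at least 1.90-fold higher, and past 2-fold with a floor at the 25th percentile (log2 ratio 1.02). Of the rest, ChAT was 1.37-fold higher, nSyb 1.35-fold lower and the general neuronal marker elav, named after its values were seen, 1.11-fold lower (228 on the tdf array and 252 on the yw array). The summed signal of the 10 named neuronal genes was 2672 on the tdf array and 1821 on the yw array, and 5 of them were below the floor on the tdf array and 6 on the yw array. The synaptic gene brp and the channel gene para, named after their values were seen, were below it on both arrays. Most of the difference in the sum was that of fne, and without it the sum of the other 9 was 1367 on the tdf array and 1166 on the yw array, a comparison added after the values were seen. The part of neuronal RNA in the Antp value was not tested.

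Of the genes listed as gut and visceral muscle markers, all 4 measured were above the floor on both arrays, with a median log2 ratio of 0.40. Whether each of them, srp included, marks these tissues at this age was not checked. The GATA factor gene srp was 1.77-fold higher, bap 1.42-fold higher and bin 1.23-fold higher, while GATAe, at 953 on the tdf array and 973 on the yw array, changed sign with the scaling. Of the salivary gland markers, whose organ depends on Scr, 2 were measured, and their median was 0.38. PH4alphaSG2 had 922 on the tdf array and 508 on the yw array, 1.81-fold higher, and sage had 258 on the tdf array and 277 on the yw array, 1.07-fold lower. The Scr target fkh was below the floor on both arrays, as Scr was.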

How the data were processed

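RNA of tdf and yw embryos was hybridised to 1 array each. The authors deposited linear intensities made with MAS5, per the submitters' processing notes, which name no version or settings. The mean signal with the lowest and highest 2% of probe sets left out was 500.1 on both arrays.

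Of 13966 fly probe sets, 12442 named 1 gene, 327 several and 1197 none, and 12393 symbols were looked up by gene ID in the RefSeq table of Release 6 plus ISO1 MT. The probe set of highest mean signal stood for a gene (10843 genes). No p-value or standard error was computed, with 1 array per genotype. The share of all measured genes past a limit is the background. The software was statsmodels 0.14.6, pandas 2.3.3, numpy 2.4.6 and Python 3.11.15. The log2 ratios were tested on simulated arrays, for genes above the floor on both arrays. The bounds, the 2-fold counts and the lists were not tested in that way.

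The Hox genes and the gene lists (from general knowledge) were chosen with earlier results of these data known. Named were all Hox genes with every probe set, apt and y, the named protein-coding genes between the outer Hox genes of each complex, and in each list the members at least 2-fold apart, the 4 largest ratios and the brightest member. Any other gene was named after its values were seen. The alternatives were 3 scalings (centring, quantile, loess with span 0.3), other floors (none, the 25th or the 60th percentile), other choices of probe set, and limits of 1.5-fold and 3-fold. A planned comparison of Hox protein sequences was not run, since no protein table was used here.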

Additional observations from a re-analysis of the deposited data

How the results depend on the processing

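No paired analysis was possible because each genotype has 1 array. The Antp log2 ratio stayed between 0.73 and 1.02 and was past 2-fold under quantile normalisation, where 1 Hox gene was higher, as it was with a limit of 1.5-fold. Without a floor the dim signals of pb and Scr counted, so 2 Hox genes were at least 2-fold lower and the Hox median was -0.57. With a floor at the 60th percentile Dfd was not measured. Over all genes, 607 were higher with a floor at the 25th percentile, 119 higher and 267 lower at the 60th, 1322 higher and 1209 lower without one, 1005 and 1171 at 1.5-fold and 35 and 136 at 3-fold. Of the 94 measured genes of all lists, 3 were higher and 21 lower, against 3.60% and 6.19% of all measured genes. All 3 higher genes were measured through the tdf array alone. Among the lower genes smg, swa, twe, bcd, tor, ash2 and psq were measured through the yw array alone. The direction of each of these was therefore fixed in advance. The higher count was 8 with a floor at the 25th percentile, 0 at the 60th, 12 without one, 16 at 1.5-fold and 0 at 3-fold, and the lower count was 10 at 3-fold. The median of the maternal list was -2.22 with a floor at the 60th percentile, which raises the floored signals by construction. The causes of the other shifts were not tested. Every list median kept its sign under the scalings, floors and choices of probe set run. The medians over genes above the floor on both arrays were added after the data were seen and also kept their sign.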
